A study of Mus musculus with 7 samples.

Results

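The genes described here are a chosen set of 40 antioxidant, glutathione and NRF2 response genes, of which 37 were measured, among 12393 genes on the arrays. A gene counted as measured where the platform annotation gave at least 1 probe set its symbol alone, and its brightest such probe set was used. Prdx1, Prdx5 and Prdx6 had no probe set of that kind and were not analysed here. Intensities were measured in primary mouse keratinocytes, the main cells of the epidermis, collected 48 h after transient transfection with small interfering RNA (siRNA). There were 5 arrays of cells given siRNA against Trp63 (replicates 1, 2, 3, 4 and 7) and 2 arrays of cells given a non-specific control siRNA (replicates 5 and 6). Strain, age and sex of the animals and the sequences of the siRNAs are not given in the sources used here, nor is it said whether replicates were separate cultures. The p-values therefore refer to the spread between arrays alone, and that spread may be technical. Trp63 siRNA replicates 3, 4 and 7 were the most alike, with correlations of log2 intensity of 0.9981 to 0.9987 among them. Their correlations were 0.984 to 0.987 with replicate 1 and 0.994 to 0.995 with replicate 2, so the 5 arrays were not equally spread.

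NRF2, the protein of Nfe2l2, is a transcription factor that KEAP1 marks for degradation and that oxidants and electrophiles release. It binds antioxidant response elements together with small MAF proteins and drives genes for glutathione synthesis, the thioredoxin system and the enzymes that detoxify quinones and other electrophiles. Epidermis meets oxygen, light and chemicals directly, and keratinocytes hold a large store of these enzymes. Trp63 encodes p63, the p53 family factor that stratified epithelia need.

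Trp63 itself averaged 503 ± 31.1 (SD, n = 5) with Trp63 siRNA and 1565 ± 167 (SD, n = 2) with control siRNA, in intensity units on a linear scale (limma adjusted p = 1.0e-05, log2 difference -1.61). The 7 arrays had median intensities of 207 to 214, and having so few arrays bounds the precision throughout. All 9 measured keratinocyte markers passed the test, 8 lower and Cdh1 higher, and their summed intensity ranged from 46292 to 49594 with Trp63 siRNA and from 59374 to 62985 with control siRNA. The keratins Krt5 and Krt14 averaged 11602 and 14825 with Trp63 siRNA, against 14460.3 and 17063 with control siRNA, while the 4 measured red blood cell markers summed to between 498 and 543 with Trp63 siRNA and between 522 and 539 with control siRNA. Of 11 fibroblast markers 2 were higher (18.2%, Col1a1 and Col5a2) and 1 was lower (9.09%, Fbln1), against 8.03% and 8.57% of all genes. The list summed to 2067 to 2382 with Trp63 siRNA and 1841 to 2084 with control siRNA. Of 6 endothelium and fat markers Fabp4 was higher (16.7% of the list), averaging 1482 with Trp63 siRNA and 369 with control siRNA. The other 5 did not pass. Sums of this list were 1688 to 2287 with Trp63 siRNA and 757 to 1038 with control siRNA, and differed mainly through Fabp4. The part of these cell types in the members' values was not tested. Melanocyte markers split the arrays across the groups. Their 9 measured members summed to 11744 and 12379 on Trp63 siRNA replicates 1 and 2 and to between 7112 and 7516 on replicates 3, 4 and 7, against 10461 on control replicate 5 and 6962 on control replicate 6. In whole cultures, more cells of a type and more RNA per cell cannot be told apart.

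Of the 37 measured members, 6 were higher, 8 were lower and 23 did not pass the test with Trp63 siRNA. A gene passed when limma's p-value, adjusted over all 22626 probe sets by Benjamini-Hochberg, lay below 0.05. That made 37.8% of the members called, against 16.6% of all genes called in either direction on the same arrays (8.03% higher and 8.57% lower). Counted by probe set, 7.83% were higher and 8.16% lower. Brighter genes were called more often: of the brighter 6197 genes 23.6% were called (12.4% higher and 11.2% lower), and 14 of the 32 members among them were, while none of the 5 dimmer members passed by limma. The median log2 difference of the members was -0.04, and that of all genes was also -0.04. Calls ran in both directions. The members were chosen with earlier results of these data known, so their share of calls is a description and was not tested. The counts leaned on the 2 controls. Without control replicate 6 there were 2 higher and 3 lower members, without control replicate 5 there were 5 and 4, and without Trp63 siRNA replicate 3, 4 or 7 there were 5 and 5. The 5 members called under every alternative were Xdh, Prdx3, Gsto1, Txnrd1 and Sod1.

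**Figure D1:**
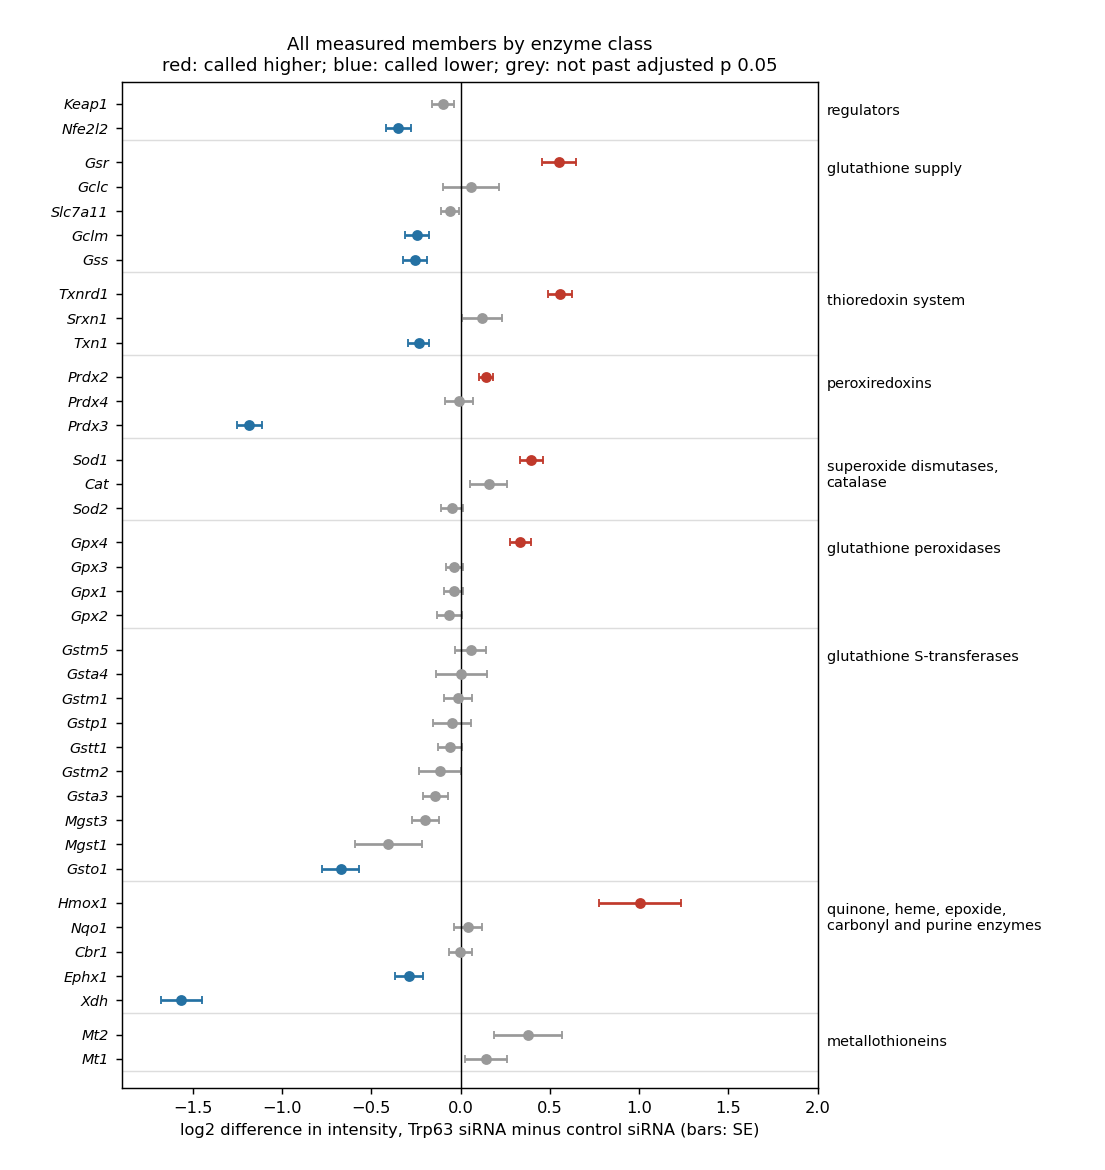
Log2 difference in probe set intensity (Trp63 siRNA minus control siRNA, horizontal axis) of the 37 measured members, grouped by class, with bars of 1 SE from limma. Differences run from -1.56 (Xdh) to 1.01 (Hmox1), and most classes hold points on both sides of 0.

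The transcript of the pathway's regulator was lower, and NRF2 protein and its activity were not measured. Nfe2l2 read 983, 967, 999, 1019 and 1038 in Trp63 siRNA replicates 1, 2, 3, 4 and 7, against 1208 and 1354 in control replicates 5 and 6. The silenced arrays were close together and all lay below both controls, at 78.1% of the control mean (-0.35 in log2 units, SE 0.068, limma adjusted p = 0.00846). The call was lost without control replicate 6 (limma adjusted p = 0.107). Keap1, the adaptor that hands NRF2 to a ubiquitin ligase, read 419, 393, 389, 397 and 411 with Trp63 siRNA, against 441 and 423 in the controls. Its groups did not overlap either, but the distance was small and did not pass (-0.10 in log2 units, SE 0.064, limma adjusted p = 0.326). A dimmer Keap1 probe set overlapped between groups, at 199 with Trp63 siRNA and 194 with control siRNA (log2 difference 0.03, limma adjusted p = 0.779). Without overlap, lower in the silenced arrays, were 10 of the 37 members, and 24.0% of all genes were. Higher without overlap were 6 members and 14.3% of all genes, and 38.3% of all genes did not overlap in either direction.

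Short stretches of promoter are shown for the 4 called members whose window, from 250 bases before to 50 after the transcript start, held the core of the antioxidant response element. The core searched was TGACNNNGC on both strands, which overlaps in part the AP-1 site, and the capitals mark the match. The sequences are RefSeq's, build GRCm38.p6, read 5′ to 3′ on the gene's strand.
Nfe2l2: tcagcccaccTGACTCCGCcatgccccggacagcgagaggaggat
Gclm: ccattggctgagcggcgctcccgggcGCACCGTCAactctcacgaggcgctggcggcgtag
Txnrd1: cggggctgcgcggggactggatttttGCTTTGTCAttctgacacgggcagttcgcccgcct
Sod1: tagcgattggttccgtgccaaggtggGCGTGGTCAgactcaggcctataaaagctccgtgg
The Nfe2l2 stretch is chr2:75704869-75704913 on the minus strand, and the match begins 240 bases before the start. The others lie on the plus strand, at chr3:122245397-122245457 for Gclm, chr10:82859088-82859148 for Txnrd1 and chr16:90220680-90220740 for Sod1. In these 3 the match is on the opposite strand, so the stretch shows it as its reverse complement, and it begins 134, 92 and 56 bases before the start. Txnrd1 has 3 windows, of which 1 held the core.

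A window was given for 32 of the measured members, and 9 of these genes (28.1%) held the core, against 14% of 27025 genes. The other 5, Hmox1, Gsr, Xdh, Gclc and Gsta4, had no window and were not searched. By window, 9 of 39 member windows held it, and 12.4% of all 32851 windows did. The core stood in the windows of 2 of 4 higher members (Txnrd1 and Sod1), of 2 of 7 lower members (Nfe2l2 and Gclm) and of 5 of 21 members that did not pass (Gsta3, Gstm5, Mgst1, Mt2 and Srxn1). Genes printed above with the same core thus differed in both directions, and a match in this window is a description of the letters only.

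Glutathione is built from cysteine, glutamate and glycine, and then cycled between a reduced and an oxidised form. Of its synthesis genes Gclm and Gss were lower and Gclc did not pass, while Gsr, the gene of its recycling, was higher. Gclm, the modifier subunit of glutamate-cysteine ligase, read 257, 252, 272, 273 and 273 with Trp63 siRNA, against 335 and 300.3 with control siRNA. Gss, which adds glycine in the last step, read 323, 288, 314, 296 and 294, against 370.0 and 359 with control siRNA. Neither gene overlapped between groups, and the differences were modest (Gclm -0.24, SE 0.067, limma adjusted p = 0.0384; Gss -0.26, SE 0.067, limma adjusted p = 0.0307). Both calls were lost without either control and without any of Trp63 siRNA replicates 2, 3, 4 and 7, with limma adjusted p up to 0.290 for Gclm and 0.178 for Gss. Gclc, the catalytic subunit of the same ligase, averaged 883 ± 139 (SD, n = 5) with Trp63 siRNA and 845 ± 141 (SD, n = 2) with control siRNA and did not pass (limma adjusted p = 0.837). Slc7a11, the cystine importer, read near the dim end and averaged 123 ± 4.54 (SD, n = 5) with Trp63 siRNA and 129 ± 10.4 (SD, n = 2) with control siRNA (limma adjusted p = 0.458).

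Gsr, the reductase that returns oxidised glutathione to its reduced form with NADPH, read 311, 284, 369.7, 338 and 349.7 with Trp63 siRNA, against 219 and 220.1 with control siRNA. Every silenced array exceeded both controls, and the rise was 1.47-fold (0.55 in log2 units, SE 0.096, limma adjusted p = 0.00469). A second, dimmer Gsr probe set was also higher (278 with Trp63 siRNA against 205 with control siRNA, log2 difference 0.41, limma adjusted p = 0.0236). The call at the brighter probe set was lost without control replicate 6 (limma adjusted p = 0.0526).

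In the thioredoxin system Txn1 was lower, Txnrd1 was higher and Srxn1 did not pass. Txn1, the small disulfide-reducing protein thioredoxin, read 5135, 5168, 5881, 5624 and 5738 with Trp63 siRNA, against 6539 and 6425 with control siRNA. Txnrd1, the selenoprotein that reduces thioredoxin in the cytosol with NADPH, read 1042, 1025, 1138, 1125 and 1071, against 719 and 737 with control siRNA. The groups lay apart for both genes, in opposite directions. Txn1 was lower by a factor of 1.18 (-0.24 in log2 units, SE 0.057, limma adjusted p = 0.0220). Its call was lost without control replicate 5 or 6, while the log2 difference stayed similar (-0.22 and -0.25). A dim second Txn1 probe set was lower too, at 113 with Trp63 siRNA and 141 with control siRNA (limma adjusted p = 0.000850). Txnrd1 was 1.47-fold higher (0.56 in log2 units, SE 0.068, limma adjusted p = 0.000798) and kept its call under every alternative. Its 2 dimmer probe sets, at 165 and 132 in the controls, stood 0.18 and 0.09 log2 units higher and did not pass (limma adjusted p = 0.168 and 0.235). Srxn1, which repairs overoxidised peroxiredoxins, averaged 499.8 ± 64.9 (SD, n = 5) with Trp63 siRNA and 456 ± 6.74 (SD, n = 2) with control siRNA (limma adjusted p = 0.519).

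Peroxiredoxins remove hydrogen peroxide with the help of thioredoxin, and the 3 measured members behaved differently. Prdx3, the peroxiredoxin of the mitochondrial matrix, read 563, 508, 557, 511 and 536 with Trp63 siRNA, against 1212 and 1258 with control siRNA. All silenced arrays lay far below both controls, and the spread inside each group was small beside the distance. Prdx3 stood at 43.3% of the control mean, a 2.27-fold fall (-1.18 in log2 units, SE 0.071, limma adjusted p = 1.73e-05). It has 1 probe set on the array, so no second reading of the gene bears on this value. Prdx2, a cytosolic peroxiredoxin, read 3800.3, 3609, 3756, 3791 and 3735 with Trp63 siRNA, against 3412 and 3366 with control siRNA. The groups were apart but close, a 1.10-fold rise (0.14 in log2 units, SE 0.040, limma adjusted p = 0.0415). That call was lost with quantile normalisation (limma adjusted p = 0.0587), with the mean of both Prdx2 probe sets (0.775) and without either control (0.140 and 0.190) or Trp63 siRNA replicate 3, 4 or 7 (0.0895 to 0.0969). The dimmer Prdx2 probe set went the other way and did not pass. It averaged 135 with Trp63 siRNA and 143 with control siRNA (log2 difference -0.08, limma adjusted p = 0.376). Prdx4, the peroxiredoxin of the endoplasmic reticulum, read 567 ± 35.4 (SD, n = 5) with Trp63 siRNA and 571 ± 29.6 (SD, n = 2) with control siRNA (limma adjusted p = 0.952), and its 3 probe sets did not pass.

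Sod1, the cytosolic superoxide dismutase, read 993, 930.1, 987, 911 and 961 with Trp63 siRNA, against 709 and 736 with control siRNA. Every silenced array lay above both controls, a 1.32-fold rise (0.40 in log2 units, SE 0.066, limma adjusted p = 0.00383). A dimmer Sod1 probe set, at 260 with Trp63 siRNA and 244 with control siRNA, did not pass (log2 difference 0.08, limma adjusted p = 0.383). Sod2, the mitochondrial enzyme, averaged 1208 ± 33.5 (SD, n = 5) with Trp63 siRNA and 1249.8 ± 39.0 (SD, n = 2) with control siRNA (limma adjusted p = 0.620), and neither of its other 2 probe sets passed. Cat, the peroxisomal catalase, averaged 936 ± 100.2 (SD, n = 5) with Trp63 siRNA and 835 ± 57.6 (SD, n = 2) with control siRNA (limma adjusted p = 0.336).

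Of the glutathione peroxidases, 1 of 4 was called. Gpx4, the selenoprotein that reduces lipid peroxides in membranes, read 3067, 2735, 2782, 2835 and 2727 with Trp63 siRNA, against 2297 and 2186 with control siRNA. The groups did not overlap, and the rise was 1.26-fold (0.33 in log2 units, SE 0.058, limma adjusted p = 0.00492). A second Gpx4 probe set was higher as well (2617 with Trp63 siRNA against 2205 with control siRNA, log2 difference 0.24, limma adjusted p = 0.0297), and the main call was lost without control replicate 6 (limma adjusted p = 0.0662). Gpx1, the general cytosolic enzyme, averaged 4679.9 ± 182 (SD, n = 5) with Trp63 siRNA and 4817 ± 370.0 (SD, n = 2) with control siRNA. Gpx1, the epithelial Gpx2 and the secreted Gpx3 had log2 differences of -0.04, -0.06 and -0.03 (limma adjusted p = 0.648, 0.572 and 0.653), and all 3 overlapped between groups.

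**Figure D2:**
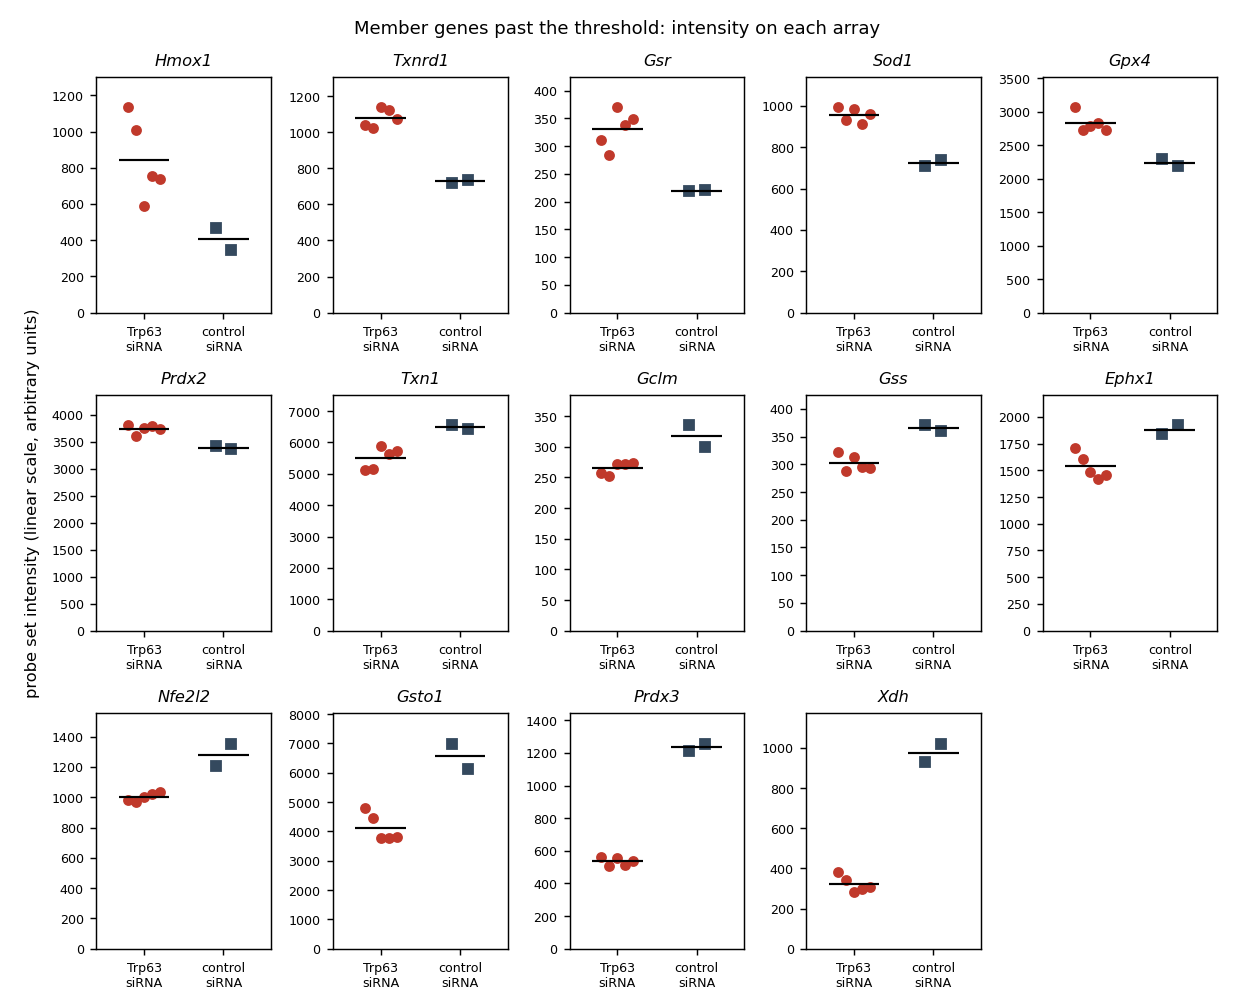
Probe set intensity on each array (vertical axes, linear scale from 0) for the 14 members past the threshold, with Trp63 siRNA as red circles (n = 5), control siRNA as dark squares (n = 2) and group means as bars. Genes are ordered by log2 difference, from Hmox1 (1.01) to Xdh (-1.56), and in each panel the groups do not overlap.

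Glutathione S-transferases attach glutathione to electrophiles, and 1 of the 10 measured members passed. Gsto1, an omega-class enzyme that acts as a reductase, read 4807, 4448, 3790.1, 3764 and 3796 with Trp63 siRNA, against 6995 and 6119 with control siRNA. The silenced arrays all lay below both controls, and within them replicates 1 and 2 were the highest. The fall of Gsto1 was 1.59-fold (-0.67 in log2 units, SE 0.10, limma adjusted p = 0.00255), and a second probe set fell too (4150.1 with Trp63 siRNA against 5723 with control siRNA, limma adjusted p = 0.00212). The other 9 had log2 differences from -0.41 (Mgst1) to 0.06 (Gstm5) and adjusted p of 0.111 or more. Mgst3, a membrane-bound member, averaged 530.1 ± 30.0 (SD, n = 5) with Trp63 siRNA and 610.2 ± 18.2 (SD, n = 2) with control siRNA without overlap, and passed when Trp63 siRNA replicate 1 was left out (limma adjusted p = 0.111 with all arrays and 0.0394 without it). The bright cytosolic members did not separate the groups: Gstp1 averaged 4217 ± 445 (SD, n = 5) with Trp63 siRNA and 4365 ± 658 (SD, n = 2) with control siRNA. Gsta4, which conjugates lipid peroxidation products, averaged 2902 ± 396 (SD, n = 5) with Trp63 siRNA and 2907 ± 629.8 (SD, n = 2) with control siRNA. The mu-class genes Gstm1, Gstm2 and Gstm5, the alpha-class Gsta3 and the theta-class Gstt1 differed by -0.01, -0.12, 0.06, -0.14 and -0.06, and their adjusted p ran from 0.195 (Gsta3) to 0.928 (Gstm1). Probe sets of the closely similar mu-class genes may detect more than 1 of them. Of the 4 dim Gstm1 probe sets, 1 passed (127 with Trp63 siRNA against 145 with control siRNA, limma adjusted p = 0.0220) and the brightest did not.

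The remaining enzymes held the largest rise and the largest fall of the set. Hmox1, the inducible heme oxygenase that breaks heme into biliverdin, iron and carbon monoxide, read 1133, 1008, 591, 752 and 739.7 with Trp63 siRNA, against 466 and 346 with control siRNA. Every silenced array was above both controls, but replicates 1 and 2 were far above 3, 4 and 7. The rise was 2.01-fold (1.01 in log2 units, SE 0.23, limma adjusted p = 0.0169), and it did not pass without control replicate 6 (limma adjusted p = 0.163). Hmox1 is also a gene of macrophages. Of 10 immune cell markers Cd68 and Cd14 were higher (20%) and Tyrobp lower (10%) with Trp63 siRNA, against 8.03% and 8.57% of all genes. The list summed to between 1791 and 2019 with Trp63 siRNA and between 1755 and 1851 with control siRNA. The leucocyte marker Ptprc was dim, at 74.9 with Trp63 siRNA and 75.8 with control siRNA, and the part of immune cells in the Hmox1 value was not tested.

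Xdh, the xanthine dehydrogenase that makes uric acid and can release superoxide and hydrogen peroxide, read 382, 341, 281, 296 and 305 with Trp63 siRNA, against 931 and 1022 with control siRNA. No silenced array came near a control, and 32.9% of the control mean remained (-1.56 in log2 units, SE 0.11, limma adjusted p = 5.11e-05). Ephx1, the microsomal epoxide hydrolase, read 1713, 1607, 1488, 1418 and 1461, against 1837 and 1919.5 with control siRNA. It was 1.22-fold lower without overlap (-0.29 in log2 units, SE 0.080, limma adjusted p = 0.0393), and its call was lost with median centring (limma adjusted p = 0.0590), with a block for spike level (0.0587), without either control (0.132 and 0.211) and without Trp63 siRNA replicate 3, 4 or 7 (0.0796 to 0.0896). Nqo1, the quinone reductase most often read as an NRF2 target, averaged 283 ± 21.3 (SD, n = 5) with Trp63 siRNA and 274 ± 12.4 (SD, n = 2) with control siRNA (limma adjusted p = 0.757). Cbr1, a carbonyl reductase, averaged 466 in both groups (limma adjusted p = 0.992).

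The metallothioneins, small cysteine-rich proteins that bind zinc and copper, did not differ past the threshold between groups but varied among the silenced arrays. Mt2 read 1159, 1121, 1726, 1702 and 1725 with Trp63 siRNA, against 1204 and 1044 with control siRNA. Mt1 read 2092, 1982, 2596, 2521 and 2614, against 2241 and 2015 with control siRNA. Replicates 3, 4 and 7 were above both controls for each gene, whereas replicates 1 and 2 were not. Over all arrays the log2 differences were 0.37 (SE 0.19, limma adjusted p = 0.218) for Mt2 and 0.14 (SE 0.12, limma adjusted p = 0.451) for Mt1.

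The arrays were also compared by melanocyte marker level, a division in which Mt1 and Mt2 overlapped. Split at the widest gap in melanocyte marker level, 3 arrays were high (Trp63 siRNA replicates 1 and 2 and control replicate 5) and 4 were low (Trp63 siRNA replicates 3, 4 and 7 and control replicate 6). For 9 of the 37 members the high arrays did not overlap the low ones, 7 higher and 2 lower, against 12.2% of all genes (7.79% higher and 4.43% lower). The 7 were Gsta3, Gsta4, Gstm1, Gstm5, Gstp1, Mgst1 and Nqo1, and the 2 were Gclc and Gstm2, so 7 of the 10 transferases separated this split. Gclc averaged 738 in the high and 979 in the low Trp63 siRNA arrays, close to 745 and 944 in the high and the low control. Gstp1 averaged 4677 in the high and 3911 in the low Trp63 siRNA arrays, against 4830.2 and 3900.0 in the controls.

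**Figure D3:**
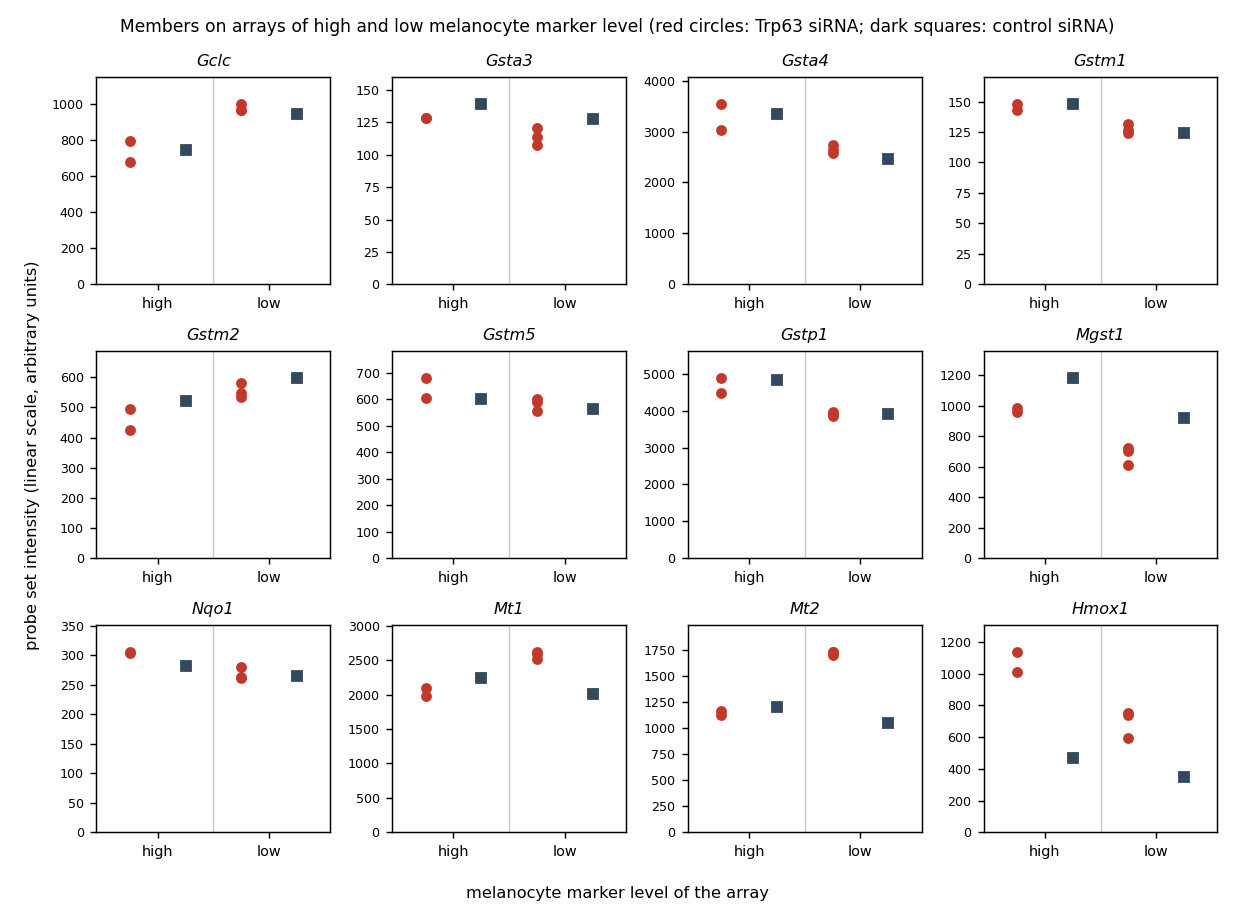
Probe set intensity (vertical axes, linear scale from 0) on the arrays of high and of low melanocyte marker level, Trp63 siRNA as red circles (n = 2 and 3) and control siRNA as dark squares (n = 1 each). The first 9 panels are the members whose high and low arrays do not overlap, and Mt1, Mt2 and Hmox1 are added.

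The groups of the 14 called members do not overlap, which fixes their direction within the high and within the low arrays, so only sizes are given. Xdh differed by -1.33 within the high and -1.74 within the low arrays, and Prdx3 by -1.16 and -1.21. Hmox1 differed by 1.17 and 0.97, and both its silenced and its control arrays were higher at the high level. With the split as a block, Hmox1 differed by 1.06 (SE 0.10, limma adjusted p = 9.6e-05) and Gsto1 by -0.65 (SE 0.039, limma adjusted p = 5.97e-06). Mgst1, a membrane-bound transferase that did not pass over all arrays (limma adjusted p = 0.179), read 960.4 and 987 in the high Trp63 siRNA arrays against 1181 in the high control, and 612, 706 and 725 in the low ones against 923 in the low control. It passed with the block (-0.36 in log2 units, SE 0.078, limma adjusted p = 0.00924). The split was drawn from these same arrays, so the block fits of Hmox1, Gsto1 and Mgst1 are alternatives to the main test. Mgst1 itself separated the split and was given detail after its values were seen. Mt2 differed by -0.08 within the high and 0.71 within the low arrays, and Mt1 by -0.14 and 0.35. Each difference within a level rests on 1 control and is a value with no test, and the part of melanocytes in them was not tested.

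**Figure D4:**
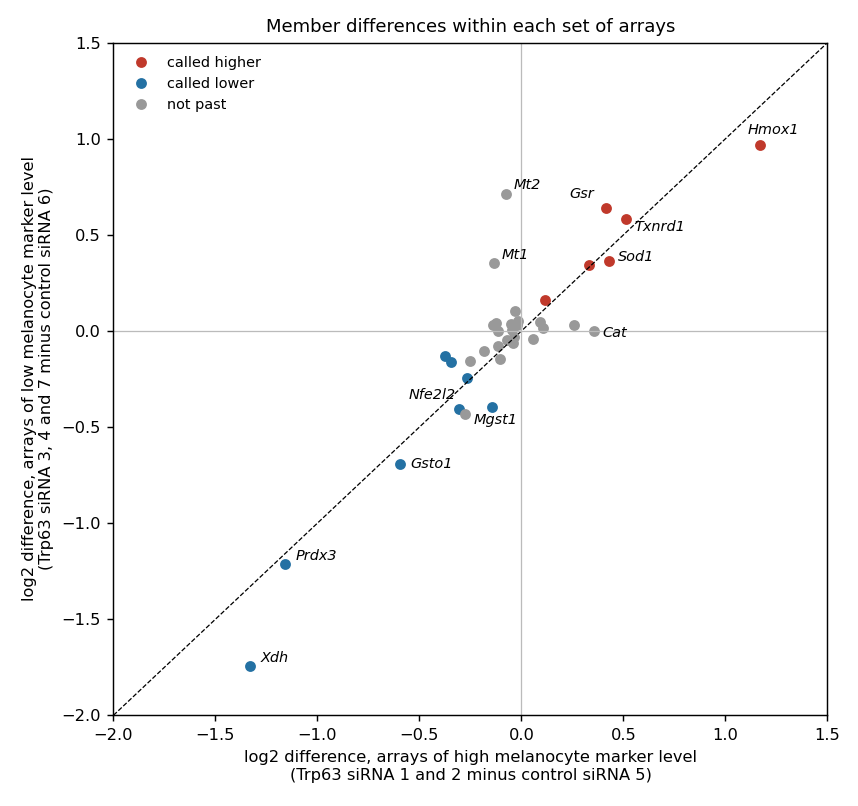
Log2 difference of each member within the arrays of high melanocyte marker level (horizontal axis) against that within the arrays of low level (vertical axis), with the line of equality dashed. Xdh (-1.33, -1.74) and Hmox1 (1.17, 0.97) lie farthest from 0 at either end, and Mt2 (-0.08, 0.71) and Mt1 (-0.14, 0.35) lie off the line.

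Beyond the members, 106 other genes of the pathway were listed by role and 85 were measured, of which 8 were higher, 13 were lower and 64 did not pass. That is 24.7% called (9.41% higher and 15.3% lower), against 16.6% of all genes (8.03% higher and 8.57% lower). The median log2 difference was -0.02. These lists were also chosen with earlier results known, so the gap between the shares was not tested. Without control replicate 6 the counts were 2 and 7, without Trp63 siRNA replicate 1 they were 13 and 21, without control replicate 5 they were 5 and 10, and without Trp63 siRNA replicate 4 or 7 the higher ones were 5 and 4.

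Of 9 partners and modulators of NRF2, 2 were higher (22.2%) and 1 was lower (11.1%), against 8.03% and 8.57% of all genes. Bach1, a repressor that competes for the same elements and is itself released by heme, read 592, 733, 824, 819 and 847 with Trp63 siRNA, against 982 and 1318 with control siRNA. It was 1.49-fold lower (limma adjusted p = 0.0328), lost without control replicate 6 (limma adjusted p = 0.268) or Trp63 siRNA replicate 2 or 4 (0.0685 and 0.0516). Sqstm1, which binds KEAP1 and carries cargo to autophagy, was 1.36-fold higher (1922 ± 170.2, SD, n = 5, with Trp63 siRNA and 1403 ± 119, SD, n = 2, with control siRNA; limma adjusted p = 0.00985). Nfe2l3, whose protein is a relative of NRF2, stood at 151% of the control mean (526 ± 42.0, SD, n = 5, with Trp63 siRNA and 349 ± 79.2, SD, n = 2, with control siRNA; limma adjusted p = 0.0124). Neither passed without control replicate 6 (limma adjusted p = 0.115 for Sqstm1 and 0.129 for Nfe2l3).

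Among 7 genes of iron and heme handling, 2 were higher (28.6%) and none was lower, against 8.03% and 8.57% of all genes. Slc40a1, the iron exporter ferroportin, read 659.6, 765, 571, 657 and 627 with Trp63 siRNA, against 282 and 264 with control siRNA. The groups lay far apart, a 2.32-fold rise (1.21 in log2 units, SE 0.10, limma adjusted p = 0.000111). Blvra, which turns the biliverdin made by heme oxygenase into bilirubin, was 1.21-fold higher (888 ± 36.0, SD, n = 5, with Trp63 siRNA and 730.1 ± 44.4, SD, n = 2, with control siRNA; limma adjusted p = 0.0283), and did not pass when a control (limma adjusted p = 0.0649 and 0.207) or Trp63 siRNA replicate 3 or 7 (0.0667 and 0.0620) was left out.

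Of 19 other genes of transferases and glutathione turnover, 7 were lower (36.8%) and none was higher. Of all genes 8.57% were lower and 8.03% higher, and the list was chosen with earlier results known. Cth, the enzyme that makes cysteine from cystathionine, read 239, 262, 212, 228 and 237 with Trp63 siRNA, against 358 and 401 with control siRNA. Oplah, which opens 5-oxoproline back to glutamate, read 134, 129.6, 113, 109 and 115, against 196 and 189 with control siRNA. Both were well separated (Cth -0.65, limma adjusted p = 0.000984; Oplah -0.62, limma adjusted p = 0.000708). The other 5 lower genes, named after their values were seen, were Ggct, Slc1a4, Mgst2, Gstz1 and Gstm6, with log2 differences from -0.84 (Mgst2) to -0.17 (Gstm6). Ggct and Slc1a4 held under every alternative, as did Cth and Oplah. Mgst2 did not pass without control replicate 5 (limma adjusted p = 0.0859), and Gstz1 and Gstm6 did not without control replicate 6 (0.287 and 0.184). Gstz1 also failed without Trp63 siRNA replicate 2, 3, 4 or 7 and with median centring, and Gstm6 with median centring and quantile normalisation. Gstm6 was dim, averaging 87.3 with Trp63 siRNA and 99.9 with control siRNA, and the filter on the dimmest 25% of probe sets removed it.

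Other redox genes moved singly. Akr1c18, an aldo-keto reductase that inactivates progesterone, read 3994, 4314, 3967, 4082 and 4025 with Trp63 siRNA, against 1249 and 1055 with control siRNA, a 3.51-fold rise (1.81 in log2 units, SE 0.068, limma adjusted p = 1.2e-06). Cbr3, a carbonyl reductase related to Cbr1, read 336, 328, 338, 339 and 332, against 532 and 568 with control siRNA (log2 difference -0.69, limma adjusted p = 0.000130). These were the 2 calls among 13 reductases and dehydrogenases (15.4%, against 16.6% of all genes), and both held under every alternative. Of 20 thioredoxin, glutaredoxin and peroxidase genes 2 were higher (10%) and 3 were lower (15%), against 8.03% and 8.57% of all genes. Txnrd3 and Sesn1, a stress-induced sestrin, were lower (-0.50, limma adjusted p = 0.00328, and -0.38, limma adjusted p = 0.00542), and the third, Msrb2, was named after its value was seen and did not pass without either control (limma adjusted p = 0.102 and 0.227) or Trp63 siRNA replicate 3, 4 or 7, or with quantile normalisation. Sesn3 (0.45, limma adjusted p = 0.0382) and Glrx, the cytosolic glutaredoxin (0.51, limma adjusted p = 0.0497), were higher. The groups of Glrx overlapped, since control replicate 5 read 3041 and Trp63 siRNA replicate 3 read 2952, while control replicate 6 read 1994. Sesn1 did not pass without control replicate 6 (limma adjusted p = 0.0659), nor did Sesn3 without any 1 array other than Trp63 siRNA replicate 1, nor Glrx under 8 of the alternatives (limma adjusted p up to 0.372). Of 6 genes that supply NADPH, Pgd was higher (0.25, limma adjusted p = 0.0255) and Idh1 lower (-0.27, limma adjusted p = 0.0467), with adjusted p up to 0.191 and 0.253 when 1 array was left out. Idh1 did not pass under 9 of the 17 alternatives, among them quantile normalisation (limma adjusted p = 0.0508), median centring (0.0531) and the spike block (0.0537). The calls among the NADPH genes made up 33.3% of that list, against 16.6% of all genes. No gene passed among 4 conjugate exporters and glucuronidation genes, 4 metal response genes and 3 oxidant producers.

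**Figure D5:**
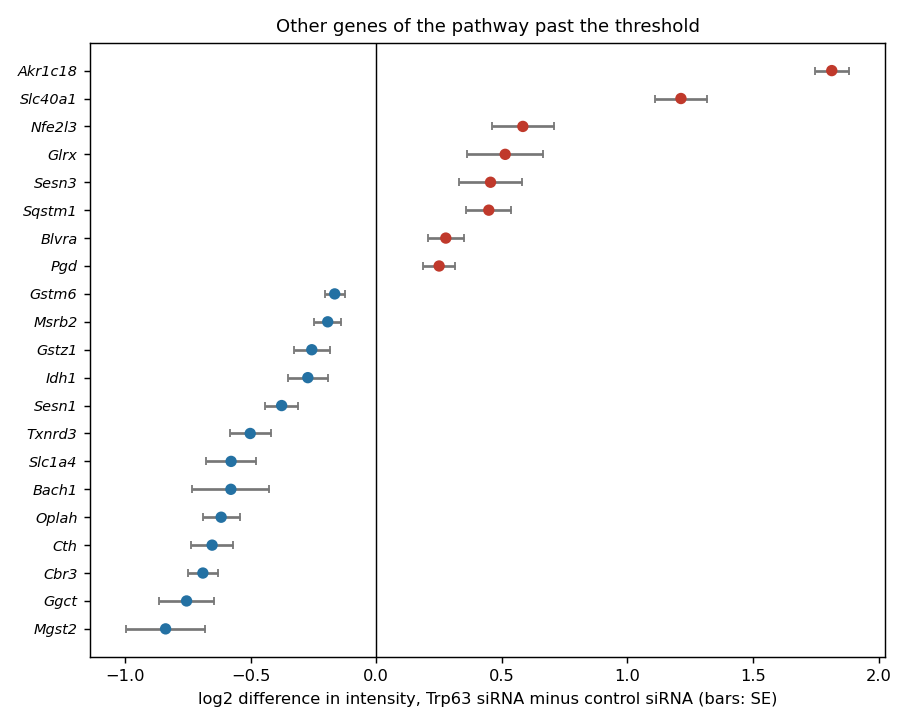
Log2 difference in probe set intensity (Trp63 siRNA minus control siRNA, horizontal axis, bars of 1 SE) for the 21 other genes of the pathway past the threshold. Akr1c18 (1.81) and Slc40a1 (1.21) have the largest rises and Mgst2 (-0.84) the largest fall.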

How the data were processed

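Total RNA was extracted with Trizol, and biotinylated complementary RNA was hybridised to Affymetrix arrays, per the labels. The authors deposited a linear intensity for each probe set on each array. Their summarisation, background correction and normalisation are not given in the sources used here. Log2 medians of the 7 arrays lay within 0.043, so values were used as deposited. The table held 22690 probe sets, and 64 of these, being array controls, were omitted. The platform annotation gave 20380 probe sets 1 gene symbol, 691 several and 1555 none. Members were matched by that symbol, and other genes by the current symbol of their Entrez ID (20351 probe sets matched).

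A pseudocount of 16 was added before taking log2, so folds of dim genes are understated. Group differences were fitted over all 22626 probe sets with limma 3.58.1 in R 4.3.3 (lmFit, then eBayes with trend), adjusted by Benjamini-Hochberg at a threshold of 0.05. No detection filter was used. On simulated data of the same size and groups the fit found 40 of 50 probe sets given a log2 change of 0.5. It found 97 of 100 given 1 and 50 of 50 given 2. The simulated noise was independent, with spreads shuffled among probe sets and no melanocyte split. Far fewer probe sets were changed than were called in the real arrays, where recovery may differ. Arrays per group were compared without a replicate block. Every array value is printed for the members past the threshold (up to 10 in each direction) and for Nfe2l2 and Keap1, and up to 2 higher and 2 lower genes of each other list are named by smallest p. Mt1, Mt2, Mgst1 and the other lower turnover genes were given more detail after their values were seen. The members and lists were chosen with earlier results of these data known. Alternatives were quantile normalisation, median centring, pseudocounts of 1 and 64, leaving out the dimmest 25% of probe sets, robust eBayes, eBayes with no trend, blocks for melanocyte marker level and for spike level (18 probe sets), the mean of a gene's probe sets, and leaving out each array. Without a control, the lone control is assumed to vary like the other group. Promoter sequences are from RefSeq, build GRCm38.p6. Figures used matplotlib 3.10.9 in Python 3.11.15.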

Additional observations from a re-analysis of the deposited data

How the results depend on the processing

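No paired analysis was possible because no replicate number occurs in both groups. Of the 14 called members, 5 kept their call under all 17 alternatives, 9 kept it without control replicate 5 and 5 without control replicate 6. Leaving out each array in turn gave 2 to 6 higher and 3 to 9 lower members, 2 to 13 higher and 7 to 21 lower other pathway genes, and 776 to 2326 higher and 598 to 3176 lower probe sets, against 1771 and 1847 with all arrays. Blocking on the melanocyte split gave 16 higher other pathway genes, against 8 without it, and 2895 lower probe sets. Over all probe sets the median log2 difference was -0.03, and -0.02 with quantile normalisation or median centring.

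No called member changed sign. Because their groups do not overlap, leaving out an array or adding a block could not have changed it. Reversals were 28 values of 10 members that did not pass, and none passed after the reversal (smallest limma adjusted p = 0.441). With quantile normalisation the log2 differences of Cbr1, Gsta4 and Gstm1 were 0.0056, -0.014 and 0.021. With median centring those of Cbr1, Gstm1 and Prdx4 were 0.016, 0.0036 and 0.0082. With the melanocyte block Cbr1 and Gstm1 had 0.0034 and 0.0051, with the spike block Cbr1 and Prdx4 had 0.00012 and 0.00046, and with the mean of its probe sets Prdx4 had 0.051. Leaving out each array in turn, the differences ran from -0.217 to 0.226 for Gsta4, -0.124 to 0.0973 for Gstm1, -0.0211 to 0.0121 for Cbr1, -0.0604 to 0.0426 for Prdx4, -0.134 to 0.0124 for Slc7a11, -0.111 to 0.225 for Gclc, -0.118 to 0.0379 for Gpx1, -0.201 to 0.106 for Gstp1, -0.176 to 0.0581 for Gstt1 and -0.0016 to 0.0857 for Nqo1. The cause was not tested. The 2 controls limit every call.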
